A study of Mus musculus with 3 samples.

Results

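The genes described are 34 genes of glycolysis and of the mTOR pathway, chosen by name from 21911 protein-coding genes, and the measurement is where the enzyme DNase I cut the chromatin around them. DNase-seq libraries came from natural killer (NK) cells taken directly from male B6CASTF1/J mice, a first-generation cross of C57BL/6 with CAST. The mice were virgin adults of 2 months. The 3 libraries form 1 group with no treatment, no genotype contrast and no control. Their donor label is shared and their biosample labels differ, so p-values and SDs measure the spread between these libraries, which may be technical, and no sort or gate is named.

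Natural killer cells are lymphocytes that kill infected or transformed cells. Glycolysis splits glucose to pyruvate in a chain of enzymes, most of which exist as isoenzymes encoded by separate genes, and lactate dehydrogenase turns the pyruvate into lactate. When cytokines activate NK cells they raise glycolysis, and this depends on the kinase mTOR, which senses growth factors and amino acids and acts partly through the transcription factors HIF-1α, MYC and SREBP. Regulatory DNA that is in use is open to DNase I and gives a peak of cuts. A protein sitting on the DNA can shield a short stretch inside such a peak, which is called as a footprint.

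A promoter was taken as 500 bp on each side of any annotated start site of a gene (mm10 coordinates, GENCODE release 21 for mouse), and counted as open where any peak reached into it. The signal of a peak is the authors' value, whose scale the sources used here do not state. It was therefore used as a ratio within a library or as a percentile among all peaks of that library, where 100 is the strongest. The libraries held 40484, 84564 and 81854 peaks and 101990, 239483 and 222990 footprints in replicates 1, 2 and 3, so replicate 1 is the sparser one. The number of reads behind them is unknown. All 10 NK marker genes listed were open in replicates 2 and 3 and 8 of them in replicate 1, with median percentiles of 78.5, 79.4 and 87.6 in replicates 1, 2 and 3. Of 8 B cell markers, 6, 8 and 7 were open, with median percentiles of 33.7, 87.4 and 78.6, so in replicate 2 the B cell median lay above the NK median. Of 8 T cell markers, 2, 6 and 4 were open, with median percentiles of 79.1, 53.3 and 54.2. In replicate 1 that median, over 2 genes, lay above the NK median. Cd3d and Cd28 were open in every library, and Cd4 and Cd8a were closed in every library. None of 8 neutrophil markers was open in any library. Monocyte markers were open at 2, 3 and 3 of 8 genes, and erythroid markers at 0, 1 and 1 of 6.

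Between replicates 2 and 3, after centring on all promoters, B cell markers differed by a median of 1.06 on the log2 scale in favour of replicate 2 (7 of 7 genes above 0) and NK markers by -0.98 (0 of 10 above 0). The members differed little between these libraries. Their median was 0.04, with 19 of 33 above 0, from -0.45 in Hk2 to 0.38 in Pfkm, while 5% of all 12696 genes open in both lay below -0.47 and 5% above 0.49. The part of other cell types in the members' values was not tested, and in these data fewer cells of a type and less open DNA per cell cannot be told apart.

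The 10 stretches of sequence that follow are shown first because the isoenzyme and footprint results below refer to them. They are read from the RefSeq GRCm38 assembly, whose bases are those of C57BL/6J, and the CAST allele of these mice can differ. Each line runs 5′ to 3′ in the direction of its gene, and capitals mark bases that lay inside footprints in all 3 libraries (for Ldhb, in replicates 2 and 3). Unless a line says otherwise, it is the open stretch just before a start site, outside every annotated exon, and the line of Aldoa reaches further upstream than its peak. The promoters of Ldha and Aldoa are the only 2 member promoters that hold a cyclic AMP response element, in full TGACGTCA.
Ldha, chr7:46845701-46845838, plus strand: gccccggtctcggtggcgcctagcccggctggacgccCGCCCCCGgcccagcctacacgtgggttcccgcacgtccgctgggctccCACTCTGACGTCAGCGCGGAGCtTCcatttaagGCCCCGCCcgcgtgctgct
Aldoa, chr7:126799301-126799600, minus strand: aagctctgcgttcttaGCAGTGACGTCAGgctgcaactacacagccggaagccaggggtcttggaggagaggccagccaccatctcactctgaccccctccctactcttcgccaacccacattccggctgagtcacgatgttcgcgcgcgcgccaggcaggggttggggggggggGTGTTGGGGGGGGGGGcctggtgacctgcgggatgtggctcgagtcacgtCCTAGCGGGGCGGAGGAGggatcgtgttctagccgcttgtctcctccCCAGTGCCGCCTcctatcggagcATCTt
The next promoters hold the footprinted NRF1 matches (GCGCATGCG, in Pgam1), the footprinted HIF response core (ACGTG, in Hif1a) and the strongest promoter peak of the 34 genes (Rheb), and the line of Srebf1 is the stretch before its internal start sites.
Pgam1, chr19:41911701-41911922, plus strand: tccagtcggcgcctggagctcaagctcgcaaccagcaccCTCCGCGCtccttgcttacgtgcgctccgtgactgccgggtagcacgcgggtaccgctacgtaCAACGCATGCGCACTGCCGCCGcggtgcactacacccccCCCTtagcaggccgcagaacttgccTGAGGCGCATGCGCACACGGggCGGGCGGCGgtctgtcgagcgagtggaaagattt
Hif1a, chr12:73907721-73907903, plus strand: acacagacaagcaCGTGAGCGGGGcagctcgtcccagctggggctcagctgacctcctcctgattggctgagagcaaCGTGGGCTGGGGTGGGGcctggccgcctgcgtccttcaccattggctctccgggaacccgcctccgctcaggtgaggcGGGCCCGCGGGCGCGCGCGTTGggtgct
Rheb, chr5:24842641-24842940, minus strand: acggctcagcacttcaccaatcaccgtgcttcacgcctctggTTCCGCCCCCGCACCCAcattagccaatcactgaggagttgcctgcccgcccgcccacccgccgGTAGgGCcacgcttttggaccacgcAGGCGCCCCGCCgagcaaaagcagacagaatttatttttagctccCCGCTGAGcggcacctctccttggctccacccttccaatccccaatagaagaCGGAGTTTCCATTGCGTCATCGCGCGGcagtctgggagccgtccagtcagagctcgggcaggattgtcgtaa
Srebf1, chr11:60210466-60210640, minus strand: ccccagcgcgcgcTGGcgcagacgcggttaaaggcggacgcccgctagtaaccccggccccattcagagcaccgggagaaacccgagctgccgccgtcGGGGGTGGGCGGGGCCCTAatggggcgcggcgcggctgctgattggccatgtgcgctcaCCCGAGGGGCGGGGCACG
For contrast stand the weakly open promoter of Ldhb and the bases before the principal start site of Eno3, which had no peak.
Ldhb, chr6:142507958-142508120, minus strand: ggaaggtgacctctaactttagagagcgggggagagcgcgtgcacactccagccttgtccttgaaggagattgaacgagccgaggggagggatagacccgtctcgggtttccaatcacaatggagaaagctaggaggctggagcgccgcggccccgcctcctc
Eno3, chr11:70657002-70657201, plus strand: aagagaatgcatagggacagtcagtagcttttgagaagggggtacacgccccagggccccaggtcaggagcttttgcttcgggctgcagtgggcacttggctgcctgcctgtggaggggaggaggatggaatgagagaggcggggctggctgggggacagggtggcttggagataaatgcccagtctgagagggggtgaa
The last pair lies away from the principal promoters, and consists of the strongest distal site of Slc2a3 and the stretch of a Gapdh exon around a match to the motif of the insulator protein CTCF.
Slc2a3, chr6:122804521-122804720, minus strand: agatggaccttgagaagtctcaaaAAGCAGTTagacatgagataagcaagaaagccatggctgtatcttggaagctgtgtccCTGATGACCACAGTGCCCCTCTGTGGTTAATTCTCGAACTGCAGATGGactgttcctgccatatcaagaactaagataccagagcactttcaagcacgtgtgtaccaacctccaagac
Gapdh, chr6:125162142-125162171, minus strand: GGGTTTGGTGCCCTCTGGTGGCTAgctcag

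Promoters of 31 of the 34 genes were open in all 3 libraries, a share of 91.2%, beside 52.4% of all protein-coding genes. Eno2 and Ldhb were open in replicates 2 and 3 only. Eno3, the muscle enolase, had no promoter peak in any library, as had 38.4% of all genes. The members had more annotated start sites than other genes, with a median of 7.5 against 3, and each start site adds chances to be called open. At the principal start site alone 29 of 34 members were open in all 3 libraries, beside 47.6% of all genes, and the 2 genes lost were Hk1 and Pfkm. Member promoters were also richer in CpG, with a median observed-to-expected ratio at the principal start site of 0.72 against 0.56. Among genes with a ratio of at least 0.6, 22 of 23 members were open in all 3 libraries, beside 83% of all such genes. The strongest promoter peak fell in the top 10% of a library's peaks for 12 of 31 open members in replicate 1, 21 of 33 in replicate 2 and 21 of 33 in replicate 3. The shares over all open promoters were 34.7% in replicate 1, 51.7% in replicate 2 and 50.2% in replicate 3. The median percentile of the open members was 87.6, 95 and 95, against 84.3, 90.5 and 90 for all open promoters. Every member open in all 3 libraries ranked lowest in replicate 1, the library with the fewest peaks.

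**Figure D1:**
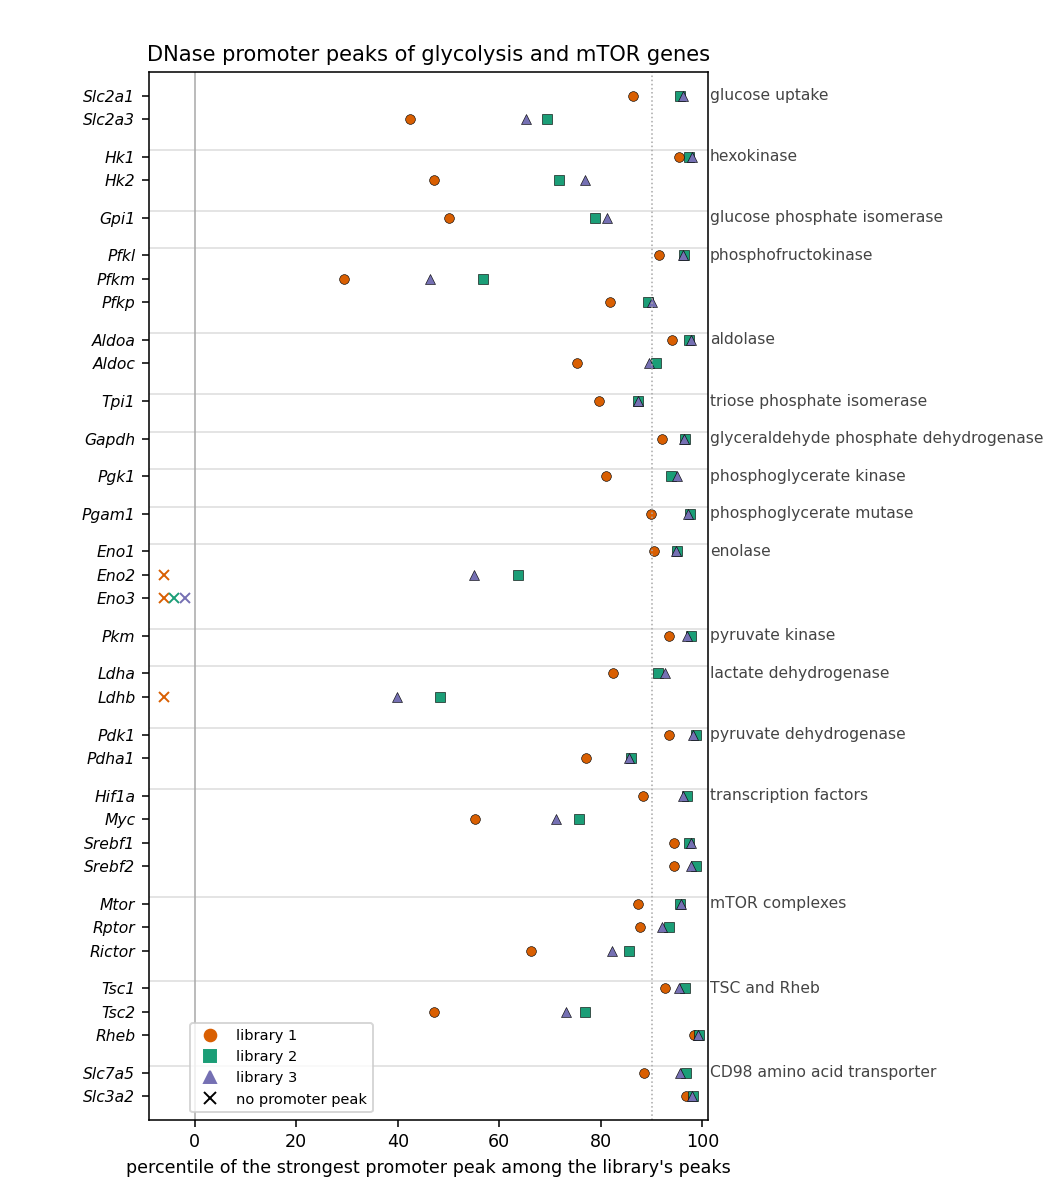
Percentile of the strongest promoter peak of each gene among all peaks of its library, by role (circles, squares and triangles: libraries 1, 2 and 3; crosses left of 0: no promoter peak; dotted line: the top 10% of peaks). Rheb sits at 98.4 to 99.3 in every library, while Pfkm, Hk2, Slc2a3, Tsc2, Eno2 and Ldhb stay below 80, as does Myc.

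Glucose enters through transporters encoded by Slc2a1 (GLUT1) and Slc2a3 (GLUT3). The strongest promoter peak of Slc2a1, at chr4:119108701-119108840 over its principal start site, had signals of 3.94, 11.2 and 12.9 in replicates 1, 2 and 3. The strongest Slc2a3 promoter peak had 0.908, 1.61 and 1.47. It lay at the outermost start site in replicate 1 and near the principal start site in replicates 2 and 3. The promoter of Slc2a1 was the stronger one in each library, by 2.68 ± 0.51 on the log2 scale (SD, n = 3), a 6.41-fold mean ratio. With principal start sites only, the difference was 2.72. With the signals of all promoter peaks of a gene summed, the difference was 1.46, and Slc2a3 had 4, 4 and 6 such peaks where Slc2a1 had 2 in each library. A site outside the gene lay within 500 bp of a start of the neighbouring Gm5112. It was far stronger than any Slc2a3 promoter, with percentiles of 92.5, 98.2 and 98.5.

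Hexokinase traps glucose in the cell as glucose 6-phosphate. Hk1 had promoter signals of 6.95, 15 and 17.2, and Hk2, the isoenzyme induced by insulin and hypoxia, had 1, 1.78 and 2.49. The difference was 2.89 ± 0.16 on the log2 scale (SD, n = 3), with the ratio between 6.92 and 8.46 in every library. The open Hk1 promoter was not the principal one. Its peak, at chr10:62340141-62340460, lay 18061 bp downstream of the principal start site, near the start of a shorter transcript. It was also within 500 bp of a start of the antisense RNA gene Hk1os. The principal start site had no peak in any library. With the principal start sites alone Hk2 was open, at percentiles of 47.2, 71.8 and 76.9, and Hk1 was not. The next enzyme, glucose phosphate isomerase (Gpi1), had percentiles of 50.1, 78.9 and 81.2.

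Phosphofructokinase commits the sugar to glycolysis, and its subunits are named for liver (Pfkl), muscle (Pfkm) and platelet (Pfkp). Signals were 5.3, 12.8 and 12.8 for Pfkl. They were 3.06, 5.36 and 6.36 for Pfkp and 0.708, 1.01 and 0.79 for Pfkm. The order Pfkl, Pfkp, Pfkm held in each library. Pfkl exceeded Pfkp by 1.02 ± 0.23 and Pfkm by 3.53 ± 0.57 on the log2 scale (SD, n = 3), and Pfkm lay below Pfkp, at -2.51 ± 0.46. Within 500 bp of a start site, the only Pfkm peak found in all 3 libraries was 16032 bp inside the gene, at an internal start site, with percentiles of 29.5, 56.7 and 46.4. When the promoter reached 1000 bp to either side it took in a peak at start sites of Senp1, a gene on the other strand that overlaps the start of Pfkm, and the differences became 1.10 for Pfkl minus Pfkm and -0.08 for Pfkm minus Pfkp, with Pfkm above Pfkp in 2 of 3 libraries.

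Aldolase cleaves the sugar into a pair of 3-carbon units. Aldoa, the form of muscle and most other tissues, had promoter signals of 6.28, 14.7 and 16.8. Aldoc, the brain form, had 2.28, 6.22 and 5.89. Aldoa was higher in each library, by 1.41 ± 0.14 on the log2 scale (SD, n = 3). As in Hk1, the strongest Aldoa peak (chr7:126799181-126799420) was not at the principal start site of the annotation but 9807 bp downstream of it, in the cluster of start sites whose sequence is shown above. The principal start site itself had percentiles of 25.8, 64 and 70.5. With principal start sites alone the order turned, to -1.91 for Aldoa minus Aldoc. The Aldoa gene was joined here from gene IDs that share its symbol, and the order for each ID alone was not tested.

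The middle of the pathway is represented by 1 gene for each step. Triose phosphate isomerase (Tpi1) had percentiles of 79.6, 87.3 and 87.3. Gapdh, whose enzyme makes the first NADH of the pathway, had 92, 96.6 and 96.4. The X-linked Pgk1, the first step that yields ATP, had 81, 93.8 and 95, from the single X of these males. Phosphoglycerate mutase (Pgam1) had 89.9, 97.6 and 97.2. All of these were open at the principal start site in every library, and Gapdh, Pgk1 and Pgam1 stood in the top 10% of peaks in replicates 2 and 3, Gapdh also in replicate 1.

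Enolase makes phosphoenolpyruvate, the substrate of pyruvate kinase. Eno1, the form of most tissues, had promoter signals of 5.03, 10.4 and 10.8. Eno2, the neuronal form, had no peak in replicate 1 and signals of 1.28 and 1.03 in replicates 2 and 3, which put Eno1 higher by 3.02 and 3.39 on the log2 scale. Eno3 had neither a peak nor a footprint at any of its 7 start sites. In the intervals where the authors called the cut rate raised at a false discovery rate of at most 0.05, Eno3 had 0, 31 and 37 bp of its 3139 bp of promoter. Eno2 had 0, 722 and 452 bp of 3873 bp. The closed Eno3 promoter sits in open surroundings: within 10 kb of the gene lay 12 regions found in at least 2 libraries, 9 of them at start sites of neighbours such as Pfn1 and Spag7. Pyruvate kinase (Pkm), which makes pyruvate and the last ATP of the chain, had percentiles of 93.4, 97.8 and 96.9.

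Lactate dehydrogenase A favours the making of lactate and the B form its use. Ldha had promoter signals of 3.16, 6.59 and 8.33 at chr7:46845701-46845900. Ldhb had none in replicate 1 and 0.788 and 0.665 in replicates 2 and 3. In those libraries Ldha was higher by 3.06 and 3.65 on the log2 scale, a ratio of 8.34 and 12.6. The Ldhb promoter had 0, 489 and 320 bp at the false discovery rate of 0.05, and the 163 bases shown for it hold no base inside footprints of both replicates 2 and 3. In the 138 bases of Ldha, 40 lay in footprints of all 3 libraries.

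At the entry to mitochondria, Pdk1, the kinase that switches pyruvate dehydrogenase off, had percentiles of 93.4, 98.7 and 98.2. Pdha1, the X-linked catalytic subunit that this kinase phosphorylates, had 77, 86 and 85.6. The inhibitor's promoter ranked above the enzyme's in each library. Pdha1 lies on the single X of these males and Pdk1 on an autosome, and the part of copy number in this order was not tested.

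**Figure D2:**
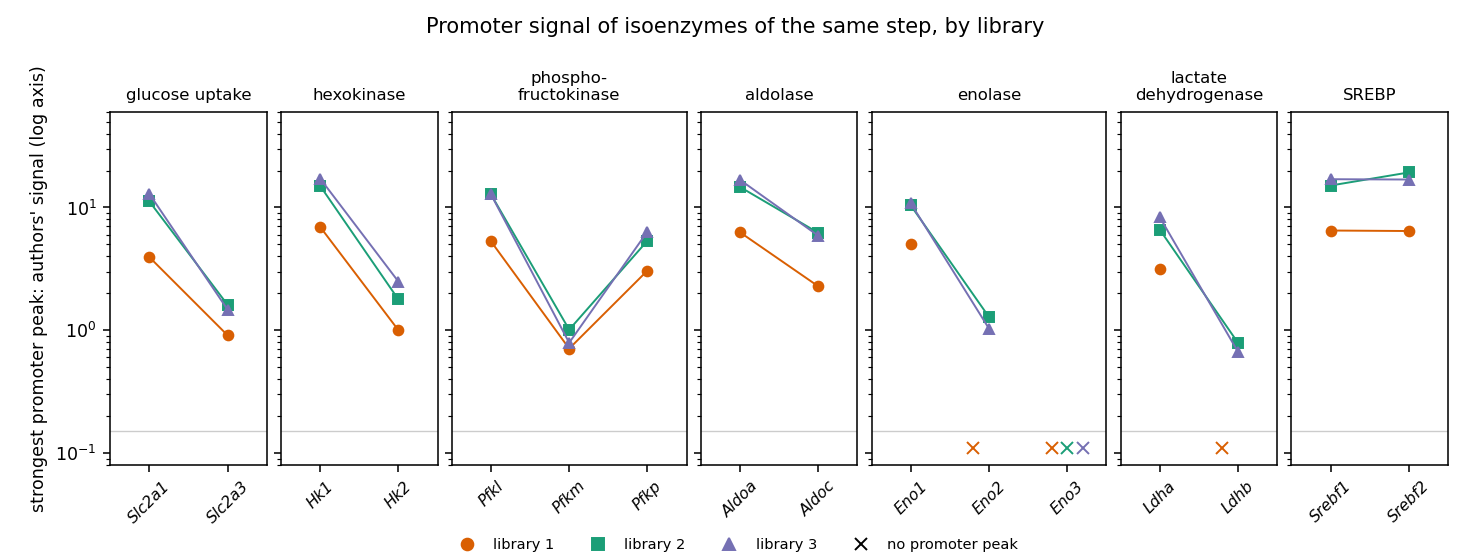
Signal of the strongest promoter peak (authors' values, log axis) for genes of the same step, with lines joining the values of a library and crosses for no peak. Pfkl, Pfkp and Pfkm keep their order in every library, and Eno2 and Ldhb lie at or below 1.28 where they have a peak, while Srebf1 and Srebf2 overlap.

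Of 11 pairs of isoenzymes or paralogs, 7 had a peak for both genes in all 3 libraries, and 6 of these pointed the same way in each. The pairs among Pfkl, Pfkm and Pfkp depend on one another, so the 6 are not separate results. How often other pairs of promoters keep their order across these libraries was not measured. An exact two-sided sign-flip test over 3 libraries cannot give a p below 0.25, which each of these 6 reached (0.292 after adjustment over the 7 pairs by Benjamini-Hochberg). So the direction held in every library, and no pair could pass a threshold of 0.05 in this design. The exception was Srebf1 and Srebf2, with 0.01, -0.35 and 0.00 on the log2 scale in replicates 1, 2 and 3 and an exact sign-flip p of 1.

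Among the transcription factors, the promoter of Hif1a, the oxygen-regulated subunit of HIF-1, had percentiles of 88.2, 96.9 and 96.2. Srebf2, which drives cholesterol synthesis, had 94.3, 98.7 and 97.8. Srebf1, which drives fatty acid synthesis, had 94.4, 97.4 and 97.8. Its strongest peak was at the principal start site in replicate 1 and at internal start sites in replicates 2 and 3. Srebf1 had more than 1 open promoter. It was open in all 3 libraries at 3 separate places: near the outermost start site with percentiles of 77.2, 89.4 and 87.8, at the principal start site with 94.4, 95 and 94.7, and at internal start sites 10103 bp further on with 92.9, 97.4 and 97.8. With the signals summed, Srebf1 was above Srebf2 in each library, by 0.95 on the log2 scale.

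Myc had many promoter peaks but none of high rank. Its strongest promoter peak had percentiles of only 55.2, 75.7 and 71.2, and was at the same place in only 2 of the libraries. Yet 7, 6 and 5 peaks covered its promoter window, with 16, 24 and 14 footprints. All 2921 bp of the window lay in intervals with a false discovery rate of at most 0.05 in each library. The cuts at Myc were thus spread over a broad stretch without a high summit. Rictor was similar in part, with 862, 1005 and 1005 bp of its 1005 bp window in such intervals and percentiles of 66.3, 85.6 and 82.2.

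mTOR works in 2 complexes, the first defined by Raptor (Rptor) and the other by Rictor. Mtor had percentiles of 87.3, 95.5 and 95.7 and Rptor of 87.6, 93.4 and 92.1. Rictor had 66.3, 85.6 and 82.2, below both in every library. The small GTPase Rheb switches the first complex on, and Tsc1 and Tsc2 form the brake that keeps Rheb inactive. Rheb had the highest promoter rank of the 34 genes, with percentiles of 98.4, 99.3 and 99.1 (98.9 ± 0.507, SD, n = 3). Tsc1 had 92.6, 96.5 and 95.4, and Tsc2 had 47.2, 76.8 and 73.2. In replicates 1 and 2 the strongest Tsc2 peak lay within 500 bp of a start of its divergent neighbour Nthl1. That signal cannot be given to Tsc2 alone. In replicate 3 this peak had a percentile of 70.3, and the 73.2 came from a peak at an internal start site.

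CD98 is the amino acid transporter made of Slc7a5, the subunit that carries leucine and other large amino acids, and Slc3a2, its partner that brings it to the membrane. Slc7a5 had percentiles of 88.5, 96.8 and 95.5, and Slc3a2 had 96.7, 98.2 and 98. The Slc3a2 peak lay at its outermost start site, within 500 bp of a start of the non-coding RNA gene Snhg1. At the principal start site of Slc3a2 the percentiles were 85.9, 94.4 and 92.9. The Slc7a5 peak likewise lay within 500 bp of a start of BC048644.

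Footprints at promoters were called in all 3 libraries for 30 of 34 members (88.2%), beside 49.8% of all genes. Pfkm, Eno2 and Ldhb had footprints in replicates 2 and 3 only, and Eno3 had none. Where a promoter had any, the median number was 6.5, 10 and 10 in the members and 6, 7 and 7 over all genes, again over more start sites in the members. In the window from 400 bp before to 200 bp after the start site, 40 bp of Ldha, 74 bp of Hif1a, 95 bp of Rheb and 109 bp of Pgam1 lay inside footprints in all 3 libraries.

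**Figure D3:**
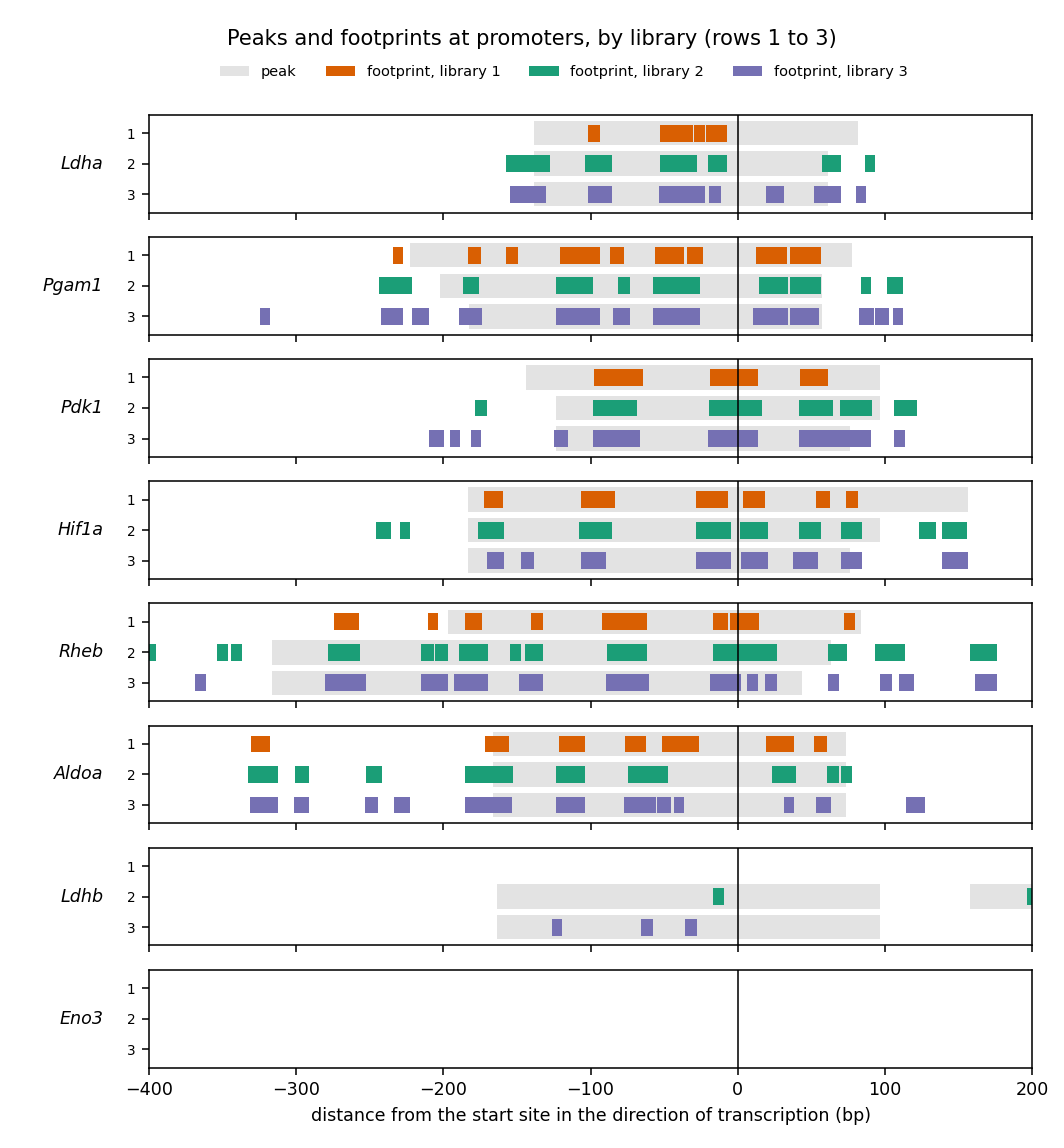
Peaks (grey) and footprints (coloured) of libraries 1 to 3 around a start site of 8 genes, by distance from it in the direction of transcription. Footprints of Ldha, Pgam1, Pdk1, Hif1a, Rheb and Aldoa recur at the same distances in the 3 rows, Ldhb has 0, 2 and 3 that do not line up, and Eno3 has none.

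To see which sequences the footprints covered, 16 short motifs were searched on both strands in every promoter window. A motif counted as footprinted where at least 50% of its letters lay in 1 footprint at the same place in all 3 libraries. The letters were ACGTG for the HIF response core, CACGTG for the E-box that MYC and SREBP can bind, TGACGTCA for the cyclic AMP response element and GGGCGG for the GC box that Sp factors bind. They were CACCC for the CACCC box of the KLF factors, CCAAT for the CCAAT box, CCGGAAG for ETS, GCGCATGCG for NRF1, TCACNCCAC for the SREBP element and TGATGNAA for the ATF4 element. For the others they were AAGATGGC (YY1), TGTGGT (RUNX), AGGTGTGA (T-box), TTCNNNGAA (STAT) and GAAANNGAA (IRF), and a 12-letter form for CTCF. Every E-box contains the HIF core, and a SREBP element can contain a CACCC box. A match describes letters under a footprint and does not name the protein.

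GC boxes were the most common. They were footprinted in 20 of the 30 members with footprints in all libraries, beside 47.3% of all such genes, and the letters occurred in 33 of 34 member promoters and 68.1% of all promoters. Pfkl had 7 of its 7 GC boxes footprinted and Srebf1 6 of 8, and the capitals of the Srebf1 sequence cover 2 of them. CACCC boxes were footprinted in 5 members (Aldoa, Pdha1, Hif1a, Srebf1 and Rheb), beside 15.6%. CCAAT boxes were footprinted in Eno1 and Srebf2, beside 7.2%.

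The cyclic AMP response element occurred in 2 member promoters, Ldha and Aldoa, and in 4.84% of all promoters. It was footprinted in both, so in 2 of the 30 members with footprints in all libraries. Over all genes with such footprints, whether or not they hold the element, the share was 4.07%. In Ldha the element lay 43 bp before the start site and wholly inside capitals. In Aldoa it lay 323 bp before the nearest start site, outside the called peak, so narrower promoters of 250 bp to either side miss it. The letters of NRF1, a factor of genes for mitochondrial and other housekeeping proteins, occurred in Pgam1 alone among the members and in 4.1% of all promoters. They were footprinted in Pgam1 in 2 places, 113 bp and 48 bp before the start site, where the overlapping match on the other strand sits 1 bp further on. That is 1 of the 30 members with footprints in all libraries, beside 5.23% of all such genes.

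The HIF response core is short and occurred in 32 of 34 member promoters and in 67% of all promoters. It was footprinted in all 3 libraries in Hif1a alone, beside 5.99%, and the E-box likewise in Hif1a alone, beside 3.59%. In Hif1a the E-box is the capital-letter edge CGTG 169 bp before the start site, of which 4 of 6 letters are covered, and no HIF core was covered by its whole length. In Ldha, a textbook HIF-1 target, an E-box and a second core upstream of the footprinted cyclic AMP element were in lower case, outside the footprints common to the 3 libraries. Without the sparse replicate 1, the counts were 5 members for the HIF core, 4 for the E-box, 9 for the CACCC box and 4 for the CCAAT box.

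ETS letters occurred in 16 member promoters. They were footprinted in all 3 libraries in none of the 30 members with footprints, beside 10.2% of all such genes. In replicates 2 and 3 they were footprinted in 4 members, Aldoa, Mtor, Tsc2 and Slc7a5. No member had a footprinted ATF4, SREBP, YY1, RUNX, T-box, STAT or IRF match at its promoter in all 3 libraries. Such matches were rare over all genes with footprints in all libraries too. Their shares, in the same order, were 0.137%, 0.183%, 1.25%, 1.46%, 0.0366%, 0.842% and 0.897%. Their absence in 30 members therefore does not set the members apart. The SREBP element occurred in 10 member promoters. A CTCF match was footprinted in Gapdh alone, beside 1.79%. It lies in an annotated exon of Gapdh, outside the coding sequence and the untranslated regions. It is 3616 bp downstream of the principal start site and 370 bp downstream of an internal start site. Its peak had percentiles of 70.1, 86.7 and 83.7, and 12 of its 12 letters are capitals in the sequence above.

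**Figure D4:**
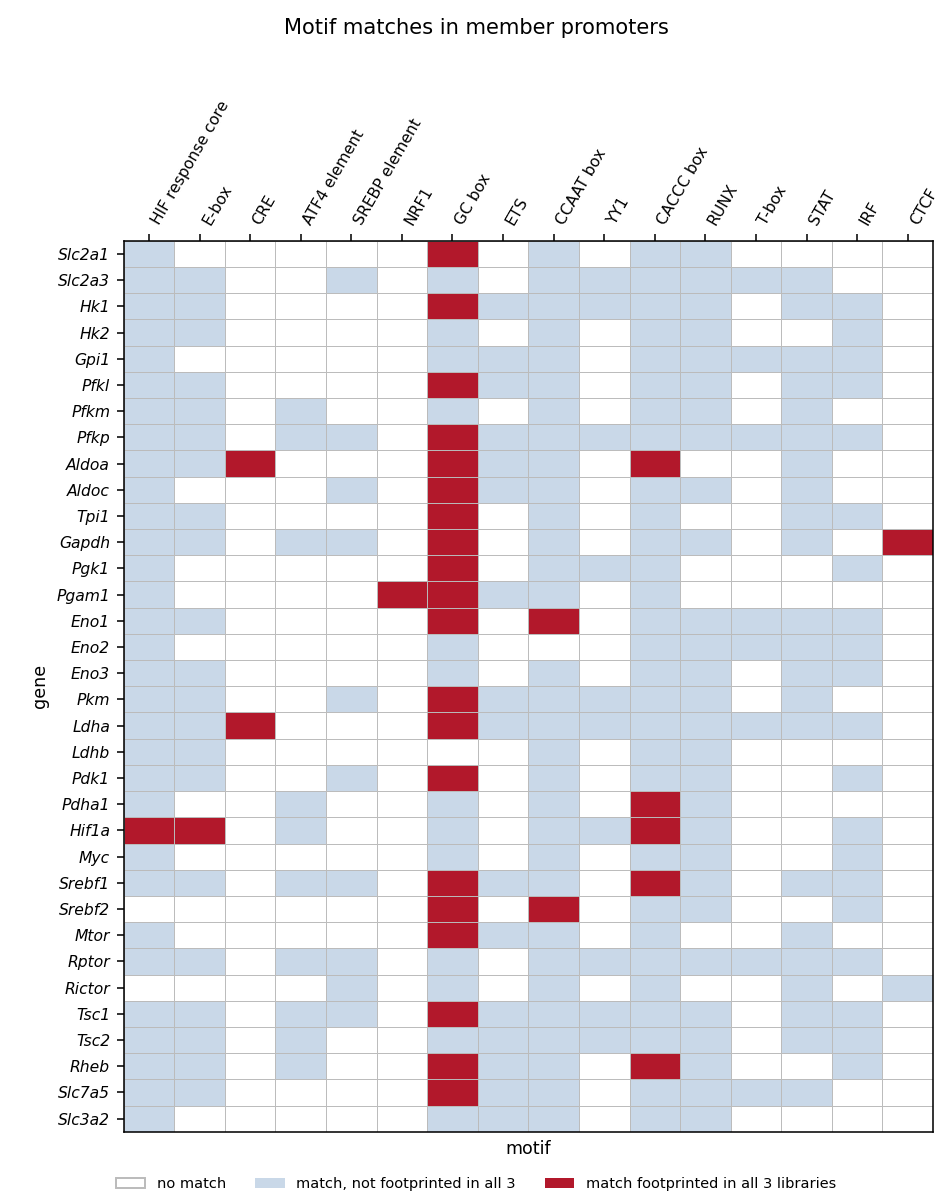
Motif matches in the promoters of the 34 genes: white for no match, pale for a match that was not footprinted in all 3 libraries, red for one that was. Red fills 20 rows of the GC box column and is sparse elsewhere, with 2 rows for the cyclic AMP response element (CRE) and 1 row each for the HIF response core, the E-box, NRF1 and CTCF.

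Around the 34 genes, from 10 kb before to 10 kb after each, 198 open regions were found in at least 2 libraries and 131 in all 3. Of these, 64 lay at the gene's own start sites, 29 at start sites of other genes, 7 in exons, 56 in introns and 42 in the flanks. The median was 5 regions per member, against 3 for all genes and 4 for genes with an open promoter, whose lengths were 25, 17.4 and 24.2 kb in the median. At least 1 site away from all start sites was found for 30 members, beside 60.5% of all genes. Slc2a3 and Rptor had the most regions, 15 each, in genes of 73.8 and 296.7 kb, and Ldhb had 1, in 17.7 kb.

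The strongest distal site was in an intron of Srebf2, at chr15:82165401-82165600, 18.3 kb from the principal start site, with percentiles of 89.5, 94.5 and 94.4. That of Tpi1, in its flank, had 77.9, 93.7 and 93.5, and a CACCC and a GC box there were footprinted. An Eno1 intron held a site with 78.3, 91 and 91.3. The Slc2a3 site printed above had percentiles of 81, 89.5 and 87.8, which exceed those of the gene's own promoters in each library. It holds 2 RUNX matches, both within capitals in a single protected stretch. Of the 10 strongest distal sites, those of Srebf1 and Rptor also held RUNX letters, which were not footprinted in all 3 libraries. The share of all distal sites with footprinted RUNX letters was not measured, and binding by a RUNX factor was not tested. Further sites of the 10 strongest lay beside Eno2, Srebf1, Slc2a1, Pfkp (2 introns) and Rptor, with mean percentiles from 80.3 to 85.6.

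**Figure D5:**
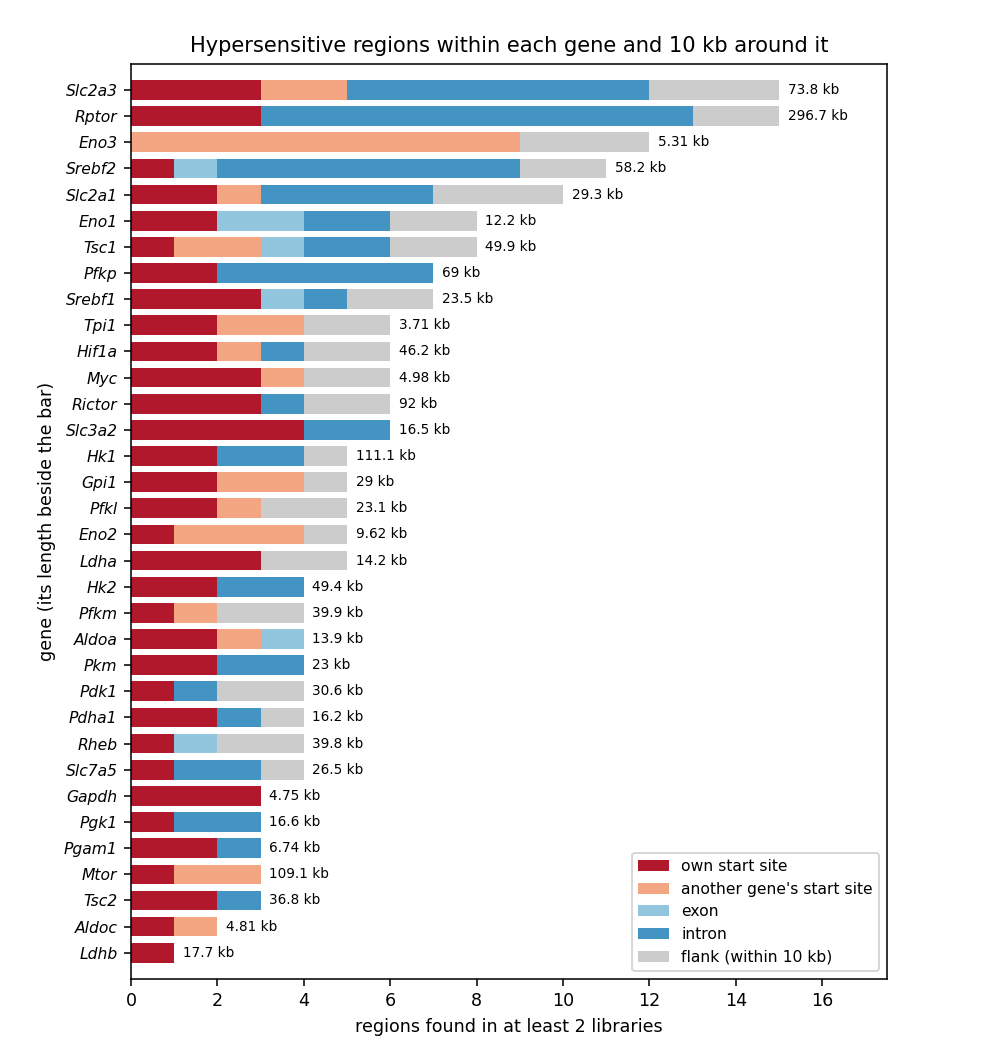
Number of regions found in at least 2 libraries within each gene and 10 kb around it, by kind, with the length of the gene beside its bar. Slc2a3 and Rptor reach 15, while the 12 regions at Eno3 include none at its own start sites and 9 at those of neighbours.

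The genes of the same pathways that are not members were taken from a list of 148. Of these, 132 were open in all 3 libraries (89.2%, beside the 52.4% of all genes), 4 in some libraries and 12 in none. Among all genes with a CpG ratio of at least 0.6 the share open in all 3 libraries was 83%. The part of CpG content and of the number of start sites in the share of this list was not tested. All 8 further genes of the HIF pathway, 8 of the mTOR complexes, 14 upstream of mTOR, 20 of amino acid sensing, 10 outputs of mTOR, 15 of the SREBP pathway and 11 of the MYC network were open. So were 7 of 9 genes of glucose and lactate transport and 6 of 7 that regulate phosphofructokinase or reverse its step. The same held for 11 of 12 of pyruvate entry, 12 of 13 of branches from glycolysis and 5 of 7 of amino acid transport. The highest ranks included Rragc, a GTPase that recruits mTOR to lysosomes (99.7, 99.9 and 99.9), Akt1s1, which encodes the inhibitor PRAS40 (98.6, 99.2 and 99.4), and Eif4ebp2, a translation repressor that mTOR switches off (99.8, 99.8 and 99.8). Of the MYC antagonists, Mxd1 had 98.3, 99.8 and 99.8. Mpc2, a subunit of the mitochondrial pyruvate carrier, had 99.9, 99.8 and 99.8.

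A further group of 14 genes was listed with the isoenzymes of glycolysis, and some of these are related enzymes rather than isoenzymes. In this group 5 of 14 were open in all 3 libraries, which is not a share of isoenzymes alone. The genes closed in every library included the testis forms Gapdhs, Ldhc and Pgk2, the muscle mutase Pgam2, and the hexokinases Hk3 and Hkdc1. The liver and red cell pyruvate kinase Pklr had a peak in replicate 3 only, at a percentile of 18.4. The liver and intestinal transporters Slc2a2 and Slc2a5, the gluconeogenic enzyme gene Fbp1, and Pdk4 and Gpd1 were also closed. The 5 open ones included Bpgm, which makes the haemoglobin ligand bisphosphoglycerate (98.8, 98.7 and 98.8), and Adpgk, which phosphorylates glucose with ADP (96, 97.8 and 97.6). The cystine transporter Slc7a11 and the amino acid transporter Slc7a7 had peaks in replicates 2 and 3 only.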

How the data were processed

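DNase-seq was measured in 3 libraries of mouse NK cells. Per the deposited descriptions, the authors called each list per library from filtered alignments to mm10, with aligner and callers not given in the sources used here. The deposited peak signal is on a scale that is not stated and was ranked within each library. Of 2 deposited peak lists per library the longer was used and the shorter (28307, 61718 and 60011 peaks) was an alternative. The deposited cut-rate intervals carry q-values (false discovery rates) of at most 0.05. Deposited footprints carry 1 score, 0.01 in each row, which served no measurement.

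Promoters, regions and motifs were computed with Python 3.11.15, NumPy 2.4.6, pysam 0.24.0 and bedtools 2.31.1 on GRCm38 and GENCODE release 21 for mouse. Gene IDs with the same symbol within 100 kb were joined, which affects Aldoa. Peaks of the libraries that overlapped by at least 1 bp were joined into regions. The functions were tested on simulated peaks, where 200 of 200 planted promoter peaks were recovered and 0 false calls were made. All 34 members are named. Of the wider list, the genes closed in every library and the highest 2 per role could be named; those open in 1 or 2 libraries were added after their values were seen, and some of the listed genes are not reported here. The strongest distal sites, up to 10, were named by mean percentile. Sequences were shown where an isoenzyme comparison or a footprinted motif turned on them. The members and lists were chosen with earlier results of these data known. Libraries enter as replicates of 1 group, so no contrast of conditions was made.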

Additional observations from a re-analysis of the deposited data

How the results depend on the processing

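The counts of open member promoters (31), of members with footprints in all libraries (30) and of open genes in the wider list (132) stayed within 1.5 times under each alternative run for them. Windows of 250 and 1000 bp, coding transcripts, the shorter list and 1 library sufficing were run for all of these counts. The middle of the peak and principal start sites only (29 members and 119 genes of the wider list) were run for the open promoters, and whole footprints for the footprints. The regions around members numbered 124 in gene bodies alone, 401 with 50 kb on each side and 131 when found in all 3 libraries, against 198. The median percentile of members, 92.8, was 80.7 among promoter peaks and 62.7 for summed signals ranked among open promoters, where the scale itself differs. Pairs that pointed one way in all libraries fell from 6 of 7 to 3 of 4 with principal start sites only, an alternative chosen after seeing the data, and to 5 of 7 with promoters of 1000 bp. With principal start sites only, Aldoa minus Aldoc turned to -1.91, as Srebf1 minus Srebf2 turned to 0.95 with summed signals and to 0.01 without replicate 2 (-0.17 to 0.01 when each replicate is left out); the cause was not tested. Of the other values of single genes and pairs under alternatives, 266 gene values moved by less than 1 SD and 73 by more, and 57 pair values kept their sign. Leaving out each replicate in turn gave 31 to 33 open members, 30 to 33 with footprints, 132 to 199 regions, 23 to 27 members with a footprinted motif (22 with all libraries), 132 to 134 open genes of the wider list, a median percentile of 91.4 to 94.9, and 6 to 8 pairs in one direction. No paired analysis was possible because all libraries belong to 1 group, so no samples could be paired between groups; the isoenzyme differences were taken within each library. Read depth is unknown, so a missing peak in replicate 1 is a peak not called at its depth.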
